A study of Mus musculus with 4 samples.

Results

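NRF2-dependent and glutathione defence genes were examined in the liver of control mice and hepatic reductase null mice. The set was chosen as every probe set that the annotation of the Affymetrix MG_U74Av2 array assigns to Gclc, Gclm, Nqo1, Gstp1, Gsta3, Gsta4, Gsr, Txnrd1, Prdx1 or G6pdx. This gave 11 probe sets of the 12488 on the array. Of the 10 genes, 8 had a probe set of their own, and Nqo1 had 2. Both probe sets of Prdx1 are assigned jointly to Prdx1 and the pseudogene Gm21399, so their values belong to either. No probe set of the annotation names G6pdx, which was not analysed here. The series holds 4 arrays, namely control replicates 7 and 8 (titled WT) and hepatic reductase null replicates 7 and 8 (titled N), all of whole liver RNA. The reductase is taken to be NADPH-cytochrome P450 oxidoreductase (Por), the electron donor of the microsomal P450 enzymes, which the known mouse line of this name lacks in its hepatocytes. Neither the Cre nor the floxed allele, nor strain, sex, age or any treatment, is given in the labels used here. The labels speak of RNA pooled from 3 animals per genotype for each experiment, while control titles name a mouse, so an array may hold a pool or a single liver. Nothing says that the arrays of a genotype come from separate animals, so the p-values measure only the spread between these arrays, part of which may be technical.

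NRF2 (Nfe2l2) is the transcription factor that switches on defence against oxidants and electrophiles. In unstressed cells its partner KEAP1 hands it to CUL3 for degradation, and when KEAP1 is modified NRF2 accumulates, pairs with a small MAF protein and binds antioxidant response elements in its target genes. Many of these targets serve glutathione, the thiol that hepatocytes make in bulk and use to trap reactive drug metabolites. GCLC and GCLM form the enzyme that limits glutathione synthesis, the glutathione transferases attach it to electrophiles, GSR regenerates it with NADPH, and TXNRD1 and PRDX1 run the parallel thioredoxin pathway. NQO1 reduces quinones, and G6PDX supplies NADPH.

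The core of the antioxidant response element, TGACNNNGC, was searched on both strands of the RefSeq promoter windows of build GRCm38.p6. These run from 250 bases before to 50 bases after a start site, which need not be the first base of the gene. Of the 10 genes 7 had a window there, and Gclc, Gsta4 and Gsr had none. The core was found in a window of 5 of these 7 genes, Gclm, Gsta3, Txnrd1, Prdx1 and G6pdx, but not in the windows of Nqo1 and Gstp1. Bases outside the windows were not searched, so a gene without a core here may hold one further away. Over all genes with a window, 14% held the core in at least 1, and over all 32851 windows 12.4% did. The 41 bases around each match are shown for the measured genes, since the core is part of the element that NRF2 and its MAF partner are known to bind. No letter outside the core was required. They are read 5′ to 3′ on the strand that carries the core, with the core in capitals.

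Gclm, chr3:122245407-122245447, minus strand: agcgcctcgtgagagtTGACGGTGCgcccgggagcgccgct

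Gsta3, chr1:21240448-21240488, plus strand: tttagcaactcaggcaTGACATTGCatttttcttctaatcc

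Txnrd1, chr10:82859098-82859138, minus strand: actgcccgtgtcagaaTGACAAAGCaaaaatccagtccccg

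Prdx1, chr4:116685450-116685490, minus strand: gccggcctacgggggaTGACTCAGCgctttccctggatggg

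Counted from the start site that each window is set on, these cores lie 134 bases upstream in Gclm, 121 in Gsta3, 92 in Txnrd1 and 133 in Prdx1. Of these sites only that of Prdx1 is the first base of the gene in the gene coordinates used here. The Gsta3 core lies on the gene's own strand and the other 3 on the opposite strand. The Prdx1 core also holds the AP-1 consensus TGACTCA, with which the searched pattern overlaps. Txnrd1 has 3 windows, and the core lies in 1 of them, at 82858956 to 82859255, inside the gene. The window at the first base of Txnrd1 (82833701 to 82834000) holds no core. A match is a description of these letters and not a measured binding site.

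The changes of the defence genes did not all share a direction, and no test of a common shift was made. Signals of both subunits of glutamate-cysteine ligase and of the transferases Gsta4 and Gstp1 were lower on both null arrays than on both control arrays, the signal of Nqo1 was higher on both, and Gsta3, Gsr, Txnrd1 and the Prdx1 probe sets overlapped between genotypes. None of the 8 genes passed the threshold in limma, which was a Benjamini-Hochberg adjusted p under 0.05 over all 7241 tested probe sets, against 0.399% of the 5510 genes tested. At an unadjusted p under 0.05 there were 5 of the 8, against 13.4% of genes. That count was the highest of all the settings tried, those with 1 array left out among them. It was 4 with other floors, the 60th percentile filter, other scalings or the replicate block. It was 3 without an intensity trend and 2 without the filter on dim probe sets. Gclm was nearest to the limit, at an unadjusted p of 0.0499 in limma. In 4 of the 8 genes both null arrays lay below both control arrays, against 24% of genes, and in 1 both lay above, against 20.9% of genes. The median log2 change of the 8 genes was -0.13, and that of all genes tested -0.01. All log2 values here are differences, null minus control, of signals floored at 7.1 and converted to log2. Since the RNA is of whole liver, fewer cells of a type and less RNA per cell cannot be told apart. Summed hepatocyte markers had signals of 54291 and 53271 in control liver and 51078 and 48759 in null liver. The part of this in the lower signals was not tested.

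**Figure D1:**
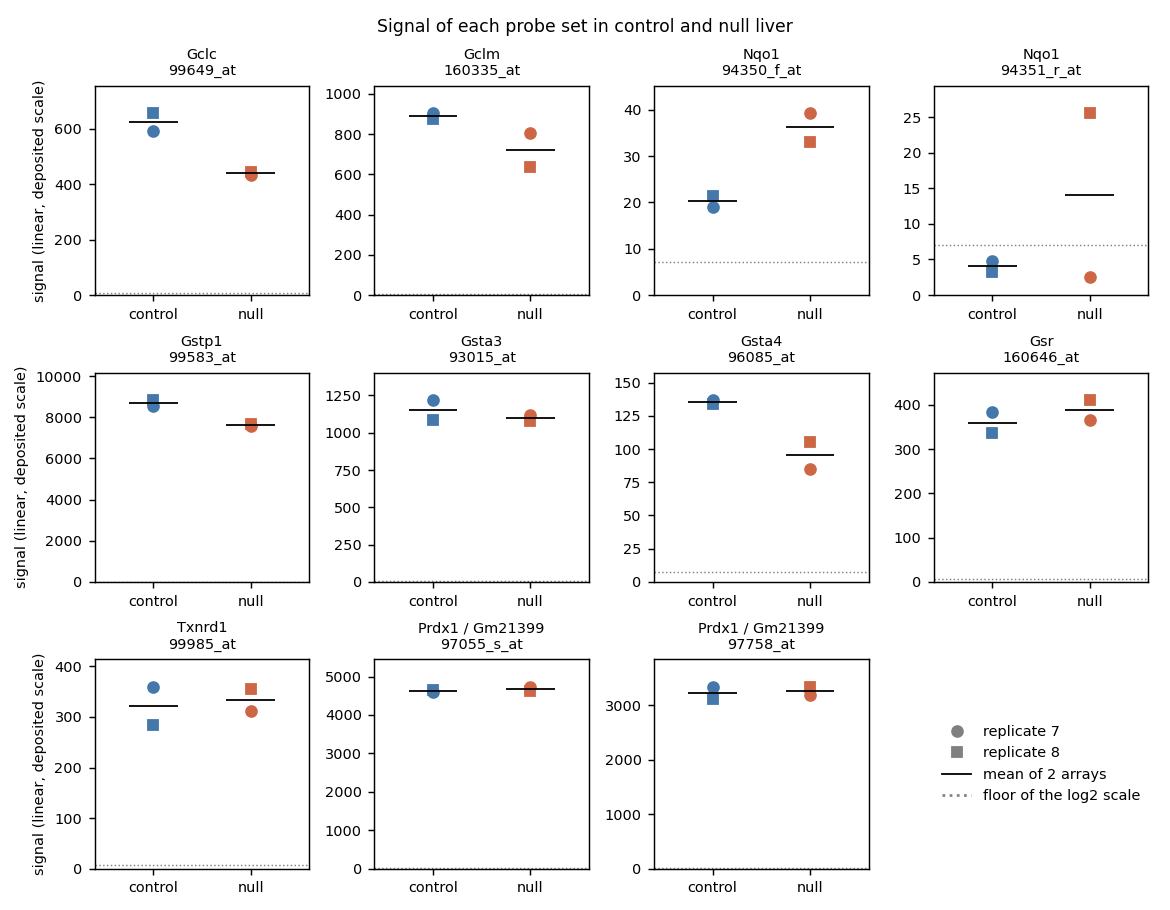
Deposited signal of each of the 11 probe sets (linear scale, each panel with its own axis from 0) on the control and null arrays. Circles are replicate 7, squares replicate 8, black lines the mean of the 2 arrays, and the dotted line is the floor of 7.1. Gclc, Gclm, Gstp1 and Gsta4 have both null arrays below both control arrays, and only the brighter Nqo1 probe set has both above.

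Both subunits of the first enzyme of glutathione synthesis had lower signals in null liver. Gclc (chromosome 9, 77754535 to 77794489, GRCm38.p6), the catalytic subunit of glutamate-cysteine ligase, had signals of 591.3 and 657.7 in control liver and 432.6 and 446.0 in null liver. Both null signals lay well below both control signals, and the null arrays differed from each other by only 0.04 on the log2 scale. The null mean of 439.3 ± 9.48 was 70.3% of the control mean of 624.5 ± 47.0 (SD, n = 2 each). The log2 change was -0.51 ± 0.11 (SE; 95% interval -0.77 to -0.24; limma adjusted p = 0.136), a 1.42-fold lower signal that did not pass. Of the members' tested probe sets, this had the smallest p.

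Gclm (chromosome 3, 122245487 to 122267215), the modifier subunit that raises the activity of GCLC, had signals of 905.0 and 876.5 in control liver and 806.3 and 636.2 in null liver. Here the null arrays stood further apart than in Gclc, by 0.34 on the log2 scale, and null replicate 8 was the lowest. The log2 change was -0.31 ± 0.13 (SE; 95% interval -0.63 to -0.00023; limma adjusted p = 0.395). It was -0.49 without null replicate 7 and -0.14 without null replicate 8, so its size rests on which null array is read.

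Of the 3 transferases of the set, Gstp1 and Gsta4 had genotypes that did not overlap and Gsta3 had genotypes that did, and no test of a difference among them was made. Gstp1 (chromosome 19, 4035411 to 4037912), the pi class enzyme, had signals of 8549.6 and 8848.5 in control liver and 7571.9 and 7669.5 in null liver. The genotypes did not overlap, and each pair was tight. The shift was small, to 87.6% of the control mean, with a log2 change of -0.19 ± 0.06 (SE; 95% interval -0.32 to -0.06; limma adjusted p = 0.247). Without any 1 array its change lay between -0.22 and -0.17.

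Gsta4 (chromosome 9, 78191966 to 78209349), the alpha class enzyme that conjugates 4-hydroxynonenal and other products of lipid peroxidation, had signals of 137.0 and 133.9 in control liver and 84.9 and 105.6 in null liver. Both null arrays were lower, null replicate 7 most. The log2 change was -0.52 ± 0.18 (SE; 95% interval -0.94 to -0.10; limma adjusted p = 0.301), or 1.43-fold lower. Without null replicate 7 it was -0.36, and without null replicate 8 it was -0.67.

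Gsta3 (chromosome 1, 21240565 to 21265575), a constitutive alpha class transferase of mouse liver, had signals of 1220.5 and 1086.7 in control liver and 1119.0 and 1079.5 in null liver. The null arrays lay within or just below the control range. Its log2 change was -0.07 ± 0.10 (SE; 95% interval -0.30 to 0.17; limma adjusted p = 0.825).

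Nqo1 (chromosome 8, 107388225 to 107403205), a classical reporter of NRF2 activity, was the sole gene of the set with higher signals on both null arrays. Its brighter probe set had signals of 19.1 and 21.3 in control liver and 39.3 and 33.1 in null liver. These are dim signals. Those of control liver lie above the floor of 7.1 but not far above 16.8, the cut that the mean of a probe set had to pass to be tested. The log2 change was 0.84 ± 0.34 (SE; 95% interval 0.04 to 1.64; limma adjusted p = 0.368), or 1.79-fold higher. With the floor raised to the 50th percentile of signals it was 0.41. That floor of 27.1 lies above both control signals and replaces them, so the change had to shrink. The second Nqo1 probe set was too dim to test, with 3 of its 4 signals below the floor. It had 4.8 and 3.3 in control liver, 2.6 in null replicate 7 and 25.6 in null replicate 8, so it does not repeat the order of the first. The brighter probe set is of the _f_at kind, which can also bind related transcripts.

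The reductases that recycle glutathione and thioredoxin overlapped between genotypes. Gsr (chromosome 8, 33653238 to 33698162) had signals of 383.3 and 335.7 in control liver and 365.1 and 411.5 in null liver. Its log2 change was 0.11 ± 0.13 (SE; 95% interval -0.20 to 0.43; limma adjusted p = 0.774). Txnrd1 (chromosome 10, 82833951 to 82897724) had signals of 359.8 and 284.7 in control liver and 311.4 and 355.7 in null liver, so both null signals lay between the control signals. Its log2 change was 0.06 ± 0.16 (SE; 95% interval -0.32 to 0.43; limma adjusted p = 0.922), and its sign turned with the array left out or with scaling to a common median (-0.02).

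The peroxiredoxin probe sets gave the narrowest intervals among the overlapping ones. The first joint Prdx1 and Gm21399 probe set had 4605.0 and 4637.7 in control liver and 4733.7 and 4617.6 in null liver, with a log2 change of 0.02 ± 0.06 (SE; 95% interval -0.13 to 0.16). The second had 3336.1 and 3114.6 in control liver and 3179.5 and 3335.3 in null liver, with a log2 change of 0.01 ± 0.07 (SE; 95% interval -0.16 to 0.19). Both values turned slightly negative (-0.01 and -0.04) after quantile normalization. Neither interval reaches -0.19, the value of Gstp1, while those of Gsr, Txnrd1 and Gsta3 do. The Gstp1 value has its own interval of -0.32 to -0.06, which overlaps both, and a difference from Gstp1 was not tested.

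**Figure D2:**
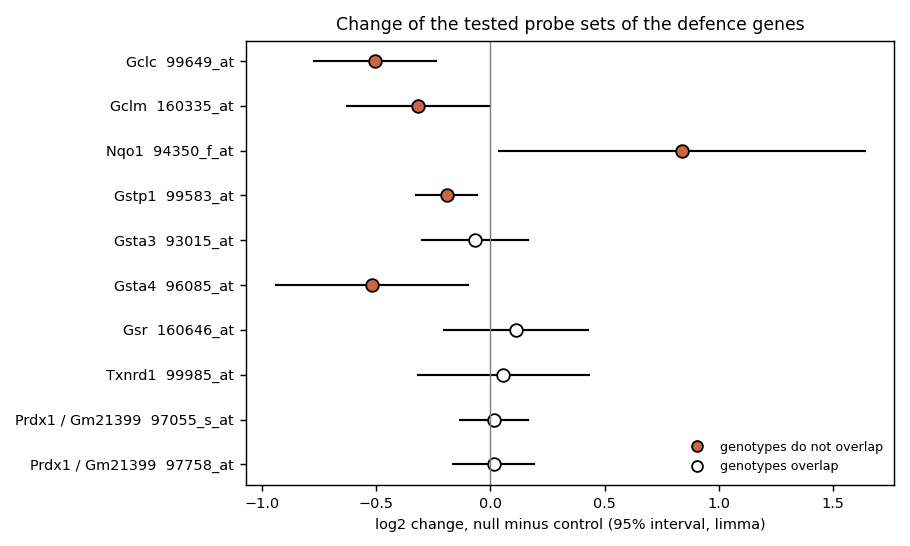
Log2 change (null minus control) of the 10 tested probe sets, with the 95% interval from limma. Filled points have genotypes that do not overlap. The intervals of Gclc, Gclm, Gstp1 and Gsta4 lie below 0, that of Gclm only just, and that of Nqo1 above 0, before any adjustment for the 7241 probe sets tested.

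Set beside the promoter windows, the measured genes with the core (Gclm, Gsta3, Txnrd1 and the Prdx1 probe sets) had log2 changes from -0.31 to 0.06, and those with a window but no core (Nqo1 and Gstp1) had 0.84 and -0.19. A gene with no core in its window may hold one outside it, and with so few genes no test of this comparison was made.

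NRF2 itself did not differ detectably at the RNA level. Nfe2l2 had signals of 151.0 and 128.1 in control liver and 114.2 and 167.9 in null liver, which overlap, with a log2 change of -0.01 ± 0.22 (SE; 95% interval -0.53 to 0.52) whose sign turned with the array left out or with quantile normalization. Keap1 was too dim to test, at 9.9 and 14.5 in control liver and 8.2 and 3.9 in null liver. Of 8 tested genes of NRF2 and its regulators 0 passed in limma, and 0 had an unadjusted p under 0.05, against 13.4% of all genes. The median change was -0.13, with 3 positive and 5 negative. Over all genes tested it was -0.01, with 2672 of 5510 positive. The smallest p-values in this list belonged to Bach1, a repressor at antioxidant response elements (-0.29 ± 0.15), the small MAF gene Mafg (-0.34 ± 0.20) and Cul3 (-0.24 ± 0.14; log2, SE). Dimmer probe sets were at -0.13 ± 0.20 for Bach1 and -0.60 ± 0.26 for Mafg.

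Around the ligase genes, the list of glutathione synthesis and turnover had 10 tested genes, of which 0 passed in limma. In it 5 had an unadjusted p under 0.05, against 13.4% of all genes, and the median log2 change was -0.11. Bhmt, which remethylates homocysteine to methionine, was at 0.46 ± 0.08 (SE; limma adjusted p = 0.0922). A dimmer Bhmt probe set was at 0.21 ± 0.21 (SE), with signals that overlap between genotypes. Mat1a, which makes S-adenosylmethionine, was at -1.02 ± 0.36 on a dim probe set with signals of 33.4 and 35.1 against 16.6 and 17.1. Slc3a2, the heavy chain of the cystine carrier, was at -0.34 ± 0.14. Gclc and Gclm are counted in this list. Gss, glutathione synthetase, which completes the molecule, overlapped between genotypes, at 314.9 and 298.6 in control liver and 230.2 and 365.5 in null liver (-0.08 ± 0.22, SE), with a dimmer probe set at 0.66 ± 0.26. It is named outside the rule, after its values were seen.

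Of 8 tested genes of glutathione reduction and the peroxidases 0 passed in limma, and 2 had an unadjusted p under 0.05, against 13.4% of all genes. Gpx4, the peroxidase of membrane lipid hydroperoxides, had signals of 257.1 and 285.2 in control liver and 477.8 and 492.9 in null liver. Its log2 change of 0.84 ± 0.12 missed the threshold (SE; limma adjusted p = 0.0551), and it passed with quantile normalization (adjusted p = 0.0462). Glo1, which clears methylglyoxal with glutathione, was at -0.47 ± 0.09, from 1208.3 and 1184.4 to 892.1 and 832.1 (limma adjusted p = 0.100), and its other probe set was at -0.44. Gpx3 was at 0.89 ± 0.45, with null replicate 8 far above the rest (126.2 against 36.7 to 46.1), and at 0.17 without it.

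Of 11 tested transferases outside the mu class 0 passed in limma, where 0.399% of all genes passed. An unadjusted p under 0.05 was found in 3, against 13.4% of all genes, namely Mgst3 (0.82 ± 0.24, SE), Gstp1 and Gsta4. Their median was -0.03. In the mu class 1 of 5 rose, Gstm3, from 1321.9 and 1303.7 to 4859.7 and 6620.7 (2.11 ± 0.14, SE; limma adjusted p = 0.00437), on a probe set of the _f_at kind. This call ended with a floor at the 50th percentile (adjusted p = 0.227), without the filter (0.251) and without an intensity trend (0.252). Gstm1 was at 0.37 ± 0.06 and Gstm2 at 1.74 ± 0.30. Other probe sets were at 3.53 ± 0.15 for Gstm3 (SE; limma adjusted p = 0.000655), 0.37 ± 0.26 for Gstm2 and -0.11 ± 0.22 for Gstm1, the last of opposite sign to its brighter one. None of the 4 tested alpha and pi class genes (Gsta2, Gsta3, Gsta4 and Gstp1) had both null arrays above both control arrays, against 20.9% of all genes. With only 4 genes, 0 lies near that share, so this says little. Gsta2 is named outside the rule, and a difference between the classes was not tested.

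Of 12 tested thioredoxin and peroxiredoxin genes 0 passed in limma, and 4 had an unadjusted p under 0.05. The share over all genes, to be set beside each list here, was 13.4%. Mitochondrial Prdx3 was at 0.37 ± 0.13, the endoplasmic reticulum enzyme Prdx4 at -0.47 ± 0.17 and Txnrd3 at 0.65 ± 0.16 (log2, SE). Of 9 tested superoxide, peroxide and quinone enzymes 0 passed in limma and 3 had an unadjusted p under 0.05, Nqo1, Hmox1 (0.56 ± 0.18) and the carbonyl reductase Cbr1 (0.73 ± 0.21). Of 10 tested genes of NADPH supply 0 passed in limma and 1 had an unadjusted p under 0.05. This was Idh2, the mitochondrial NADPH-making isocitrate dehydrogenase, at 1.09 ± 0.17, from 194.0 and 213.7 to 373.9 and 504.8 (limma adjusted p = 0.0696). The others of smallest p were Rpia (-0.28 ± 0.19) and H6pd (-0.11 ± 0.08). G6pd2, a retrogene relative of G6pdx, was too dim to test, at 12.7 and 19.8 against 20.9 and 12.3.

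Among 20 tested genes otherwise known as NRF2 targets 1 rose (Gstm3), 0 fell and 19 did not pass in limma, where 0.399% of all genes passed. An unadjusted p under 0.05 was found in 9, against 13.4% of all genes. Of the changes 14 were positive and 6 negative, against 2672 positive of all 5510 genes. The median was 0.19, and that of all genes -0.01. In 10 both null arrays lay above both control arrays, and in 1 below, against 20.9% and 24% of all genes. This list leaves out the members and was chosen with earlier results of these data known, so its counts are a description and no test. Of the 8 members 3 were positive and 5 negative. Of the 80 tested genes of all the pathway lists 44 were positive and 36 negative, with a median of 0.04. After Gstm3 the smallest p-values among the 20 were those of Abcc3, an exporter of conjugates (0.65 ± 0.09; limma adjusted p = 0.0551), Gstm1 and Ugdh, which makes the sugar donor of glucuronidation (0.63 ± 0.11). Abcc3, Ugdh and the mu transferases are also known targets of the xenobiotic receptor CAR. Srxn1, sulfiredoxin, named here after its values were seen, showed how much rests on the probe set. Its brighter one went from 106.9 and 104.2 to 77.1 and 100.2 (-0.26 ± 0.19), and its other one from 46.6 and 51.0 to 104.9 and 162.4 (1.42 ± 0.25; limma adjusted p = 0.0803).

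**Figure D3:**
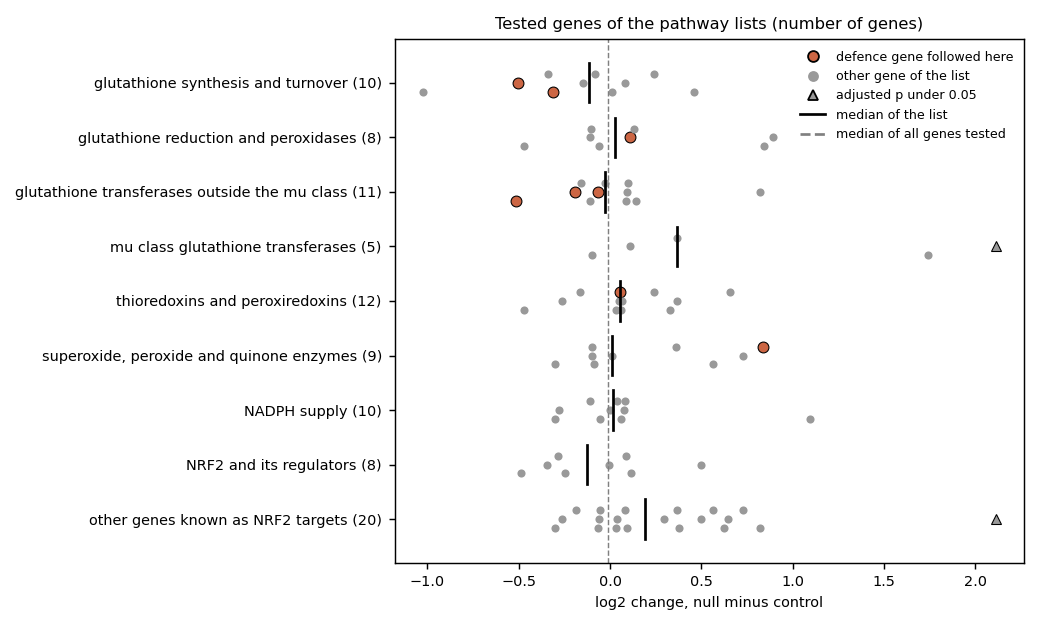
Log2 change (null minus control) of each tested gene in the 9 pathway lists, one row per list with its number of genes. Orange points are the defence genes followed here, grey points other genes, the triangle is the gene with an adjusted p under 0.05 (Gstm3, in 2 lists), black bars are list medians and the dashed line is the median of all genes. The orange points of the ligase subunits and the transferases lie left of the dashed line, and Nqo1 lies right of it.

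Values of the arrays that touch these results are as follows. Over all probe sets 22 were higher and 6 lower in null liver. Markers of Kupffer cells and macrophages, which also carry thioredoxin and peroxiredoxin genes, summed to 2851 and 2819 in control liver and 3537 and 3859 in null liver, with 12 of 13 tested markers positive and 1 past the threshold, while the Kupffer cell gene Clec4f was at -0.01. The part of these cells in the thioredoxin and peroxiredoxin values was not tested. Of 12 tested hepatocyte markers 4 were positive and 0 passed in limma, with a median of -0.13. Albumin (Alb) was at 0.02 and transthyretin (Ttr) at -0.63, from 2054.1 and 1900.5 to 1471.9 and 1114.1. Of the 6 cholangiocyte markers with a probe set 1 could be tested, their summed signals ran from 145.7 to 169.3, and Epcam was at or below the floor on all arrays. Of the other lists, markers of stellate cells and fibroblasts were positive in 9 of 9, of endothelial cells in 3 of 6, of neutrophils in 3 of 4, of lymphocytes in 2 of 3 and of erythroid cells in 0 of 2 tested genes, and none of these genes passed in limma. Pancreatic acinar markers summed to 3174 on null replicate 7 against 280.1 to 400.1 on the other arrays. Without that array Gclc was at -0.48, Gclm at -0.49, Gstp1 at -0.18, Gsta4 at -0.36 and Nqo1 at 0.71.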

How the data were processed

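Liver RNA of 2 control and 2 null arrays (MG_U74Av2) was read from the series' value table. Per the labels, the authors obtained the deposited intensity of each probe set in GCOS, which reads matched and mismatched probes, and scaled each chip by its total fluorescence. No version or scaling target was given in the labels used here. No further normalization was applied. Values under 7.1 (the pooled 25th percentile) were set to 7.1 before log2, and the 7241 probe sets with a mean above log2 of 16.8 (40th percentile) were tested. The 66 control probe sets were left out. Names came from the platform's annotation, updated by gene identifier to GRCm38.p6. Of the other probe sets 10833 carried 1 symbol, 396 several and 1193 are unnamed here. A gene was read on its brightest tested probe set. The genotype contrast used limma 3.58.1 under R 4.3.3 (lmFit and eBayes, variance trend on intensity, two-sided, genotype as the only term, 2 residual and 4.78 prior degrees of freedom), with Benjamini-Hochberg adjustment over all tested probe sets. With 4 arrays the smallest two-sided p of an exact permutation test is 0.333, so none was run. The number of arrays limits the precision. The median SE of a log2 change over all tested probe sets was 0.22, so 0 calls among genes with small changes says little about whether they differ.

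The genes followed, the pathway and marker lists, the tests and the rule for named genes (the members, and in each list those past the threshold and up to 3 others of smallest p, with Nfe2l2 and Keap1) were chosen with earlier results of these data known. Other floors, filters, scalings, a replicate block and each array left out were tried. The steps were tested on simulated data.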

Additional observations from a re-analysis of the deposited data

How the results depend on the processing

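In each of the 12 refitted settings 0 of the 8 genes passed in limma, either way, and Gclc, Gclm, Gstp1, Gsta4, Nqo1 and Gsr kept their direction (Gclc from -0.58 to -0.43, adjusted p from 0.0973 to 0.499). With the 60th percentile filter Nqo1 was too dim to test. Values near 0 turned sign. Median scaling gave -0.018 for Txnrd1 and -0.058 and -0.060 for the joint Prdx1 probe sets, and quantile normalization gave -0.014 and -0.037 for these and 0.0055 for Nfe2l2. With 1 array left out Gsta3 ran from -0.15 to 0.016, Txnrd1 from -0.11 to 0.23, the joint Prdx1 probe sets from -0.0012 to 0.035 and from -0.035 to 0.064, and Nfe2l2 from -0.28 to 0.27. Median scaling moved the median of all tested probe sets to -0.08. The counts over all probe sets were 0 higher and 0 lower with a floor at the 50th percentile, without a filter or without an intensity trend, 29 and 15 with the 60th percentile filter, 30 and 12 with quantile normalization, and 11 to 16 and 0 to 4 with 1 array left out. Of the pathway genes 0 rose in the first 3 of these settings, 5 with the 60th percentile filter, 4 with quantile normalization and 1 to 2 with 1 array left out, where the lone array is assumed to vary like the other pair. Gpx4, Abcc3 and Gstm1 passed with the 60th percentile filter and with quantile normalization, Idh2 with that filter and the replicate block, and Gstm2 without null replicate 7 and with the block. Without 1 array, genes with every null signal above every control signal numbered 1 to 3 of 8 and those below 4 to 6. These counts were added after the data were seen, and the share over all genes was not taken in these settings. Fewer arrays overlap less often, so the 20.9% and 24% found with 4 arrays do not apply to them. The cause of the shifts between settings was not tested. The labels do not say whether the numbers 7 and 8 pair the arrays. The correlation of same-numbered deviations was -0.03 over probe sets, but 2 arrays a genotype cannot settle this. The replicate block gave 37 higher and 15 lower probe sets and 3 pathway genes that rose, Gstm3, Idh2 and Gstm2.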
